A study of Mus musculus with 16 samples.

Results

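The comparison described here is that of mutant with control hearts at E13.5 (E stands for embryonic day). It holds 8 of the 16 arrays of the series, chosen by their labels: 4 single hearts labelled Chd7fl/fl;Mesp1Cre and 4 single hearts labelled WT. The other 8 arrays are of the same genotypes at E11.5. All embryos were of the C57BL/6 strain and came from matings of Chd7fl/+;Mesp1-Cre with Chd7fl/fl mice. Mesp1-Cre is a recombinase under the control of a gene of the early anterior mesoderm, so Chd7 is removed from the descendants of that tissue, which form most of the myocardium, endocardium, epicardium and vessels, and is kept in neural crest cells that enter the heart. The paper calls the controls Chd7+/+;Mesp1-Cre. The mating in the labels cannot give Chd7+/+ embryos, so the genotype of the controls is not settled. Hearts are named below by the numbers in their labels, mutant 1, 2, 3 and 4 and control 1, 2, 4 and 5, and values per heart are always given in that order.

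CHD7 is an ATP-dependent chromatin remodeller that binds enhancers and promoters, and heterozygous loss of the human gene causes CHARGE syndrome, in which heart defects are frequent. The embryonic heart at this stage has muscle chambers with trabeculae and a compact layer, an outer epicardium, cushions that remodel into valves and septa, a lining of endocardium and growing coronary vessels, and it receives macrophages and the first nerves. A dissected heart also holds blood with its red cells, platelets and megakaryocytes. Each array averaged over all of these, so fewer cells of a type and less RNA per cell cannot be told apart in any value below.

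Levels are log2 values after robust multi-array averaging (RMA), a difference of 1 being a doubling, and log2 FC is mutant minus control. Each gene was tested with limma, a linear model that shares information on the spread across all probe sets. A gene was called up- or downregulated where the adjusted p was under 0.05 and the log2 FC exceeded 0.5 in size. A wider rule, used only to describe groups of genes, asked for an unadjusted p under 0.05 and the same size, and genes that met it are said to have passed without adjustment. Of 19937 genes, 6 were called lower (0.0301%) and 3 higher (0.015%), while 135 (0.677%) and 119 (0.597%) passed without adjustment. For 402 genes (2.02%) the 4 mutant hearts all lay below the 4 control hearts and for 411 (2.06%) all above, and such hearts are called fully apart. The median log2 FC over all genes was 0.004, and 90% of the genes lay between -0.26 and 0.26. The list counts below are descriptions, to be read against these shares.

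The heart markers Myh6, Tnnt2, Actc1, Myl7, Myl4, Nkx2-5 and Nppa differed by between -0.12 and 0.07 and lay at or above percentile 96.6 of all probe sets. The labels give no sex. The mean of Uty, Kdm5d and Eif2s3y, all on the Y chromosome, was 9.24 to 9.31 in mutant 4 and controls 4 and 5, and of 4.20 to 5.40 in the other 5 hearts, in which Xist was high. Control 1 had the highest mean of those 5, and 21 genes stood over 1 above every other E13.5 heart in it, against 0 to 3 in each of the others. Among the 21 were the red cell genes Epb42, Ermap, Kel and Rhag and the factors Gata1, Gfi1b and Nfe2. The platelet and erythroid list results and that of Slc4a1 are therefore given without this heart too. Whether hearts came from separate litters is not labelled. The limma p-values rest on a spread between hearts that is pooled over all 16 arrays of both stages. With the E13.5 arrays alone 1 gene was called lower and 1 higher. Dates of hybridisation were not analysed here, so batches of arrays were not tested.

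Chd7 itself was lower in every mutant heart. Its brightest probe set gave 8.98, 8.98, 8.88 and 9.07 in mutant and 10.22, 9.88, 10.30 and 9.83 in control hearts (log2 FC -1.08, standard error 0.14, adjusted p = 0.0209 by limma; exact permutation test, two-sided, p = 0.0286, the smallest that 4 against 4 hearts allow). All 30 of its probe sets were lower, with log2 FC between -1.58 and -0.45 and a median of -0.78. Of the 30, 4 met the rule for a call. Of the 10 genes of the CHD family Chd7 alone passed, and the highest log2 FC among the others was 0.10.

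Apart from Chd7 and the guidance genes Sema3a and Slitrk5, 3 genes were downregulated. Nr2f1, which encodes the orphan nuclear receptor COUP-TFI, stood at 7.05, 6.68, 7.06 and 6.39 in mutant and 7.97, 8.14, 8.37 and 8.42 in control hearts (log2 FC -1.43, standard error 0.22, adjusted p = 0.0366 by limma). Calcr, the calcitonin receptor, read 6.05, 5.56, 5.46 and 5.56 against 7.5, 6.76, 7.02 and 6.90 (log2 FC -1.39, standard error 0.22, adjusted p = 0.0403 by limma). The X-linked Tent5d, which belongs to a family of non-canonical poly(A) polymerases, was at 6.91, 6.10, 6.71 and 6.78 against 7.60, 7.72, 7.97 and 7.65 (log2 FC -1.11, standard error 0.18, adjusted p = 0.0425 by limma). In each of the 3 the highest mutant heart stayed below the lowest control heart. Of 10 genes of the calcitonin family, which also holds adrenomedullin and the receptor-modifying proteins, Calcr alone passed without adjustment, and the median log2 FC of that list was -0.11.

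The 3 upregulated genes have no common role. Cpn1, the catalytic subunit of carboxypeptidase N, which trims complement and kinin peptides, showed the largest change, with 8.65, 8.58, 9.17 and 8.58 in mutant and 6.96, 6.61, 6.98 and 6.73 in control hearts (log2 FC 1.93, standard error 0.22, adjusted p = 0.00404 by limma). Wfdc17, a small secreted protein made by activated macrophages, was dim in controls at 5.09, 5.22, 5.00 and 4.92 and read 6.96, 6.37, 7.02 and 6.31 in mutants (log2 FC 1.61, standard error 0.24, adjusted p = 0.0366 by limma). Them7, an acyl-CoA thioesterase family gene, stood at 8.23, 7.70, 8.08 and 7.95 against 7.12, 6.91, 7.01 and 7.27 (log2 FC 0.91, standard error 0.13, adjusted p = 0.0273 by limma). Mutant and control hearts were fully apart for each of them, and the level of Cpn1 in the lowest mutant heart was over 1 above the highest control heart.

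The calls were close to the threshold. Chd7, through at least 1 of its probe sets, and Cpn1 stayed called when any single heart was left out. Nr2f1, Calcr, Tent5d and Sema3a were not called without mutant 2, 3 or 4 or any single control heart, Them7 not without mutant 1, 3 or 4 or control 1, 2 or 4, and Wfdc17 and Slitrk5 not without any single heart, with highest adjusted p values over the alternatives between 0.52 and 1.0 for these 7 genes.

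**Figure D1:**
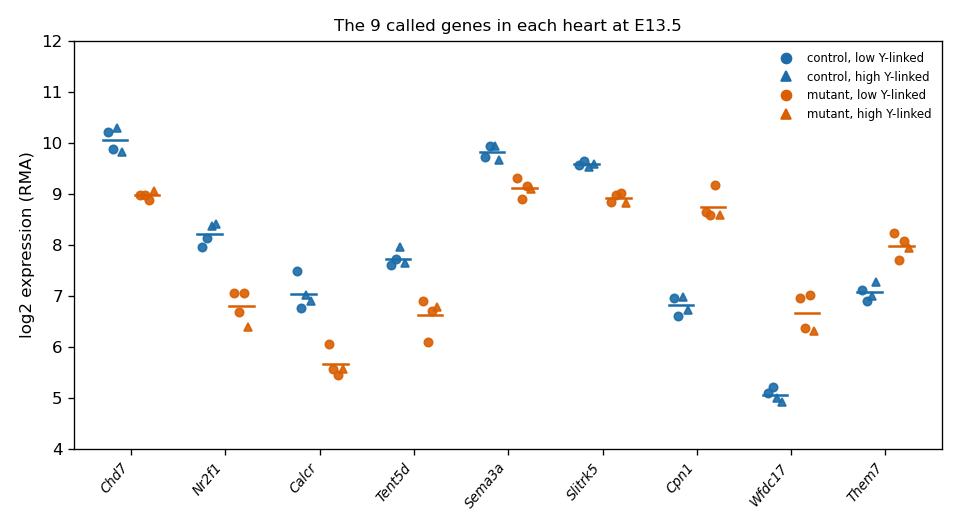
Log2 expression (vertical axis) of the 9 called genes in each of the 8 hearts at E13.5, with a bar at each group mean; controls are blue and mutants orange, and triangles mark hearts with high Y-linked expression. For every gene the orange and blue points do not overlap.

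Other genes with large differences passed only without adjustment. Those described first, Nrn1 to Alox8, were picked among passing genes with hearts fully apart, so that trait was a condition of the choice. Nrn1, which encodes the membrane-bound neurite growth factor neuritin, had the largest negative log2 FC of all genes that passed, -1.76 (standard error 0.41, adjusted p = 0.290 by limma), from 5.74, 4.91, 4.94 and 5.64 in mutant and 7.89, 6.82, 7.38 and 6.17 in control hearts. Lin7a, a scaffold protein of cell junctions, stood at 6.98, 6.57, 6.40 and 6.51 against 7.27, 7.66, 7.80 and 7.89 (log2 FC -1.04, adjusted p = 0.383 by limma). Lrrn3, a neuronal leucine-rich repeat protein, was at 6.60, 6.51, 6.94 and 6.78 against 7.38, 7.65, 8.28 and 7.59 (log2 FC -1.02, adjusted p = 0.0536 by limma). These 3 proteins are best known from neurons. Upwards, Gtsf1, a factor of piRNA-directed transposon silencing in germ cells, read 8.47, 8.54, 8.59 and 8.26 against 6.27, 7.53, 6.88 and 7.29 (log2 FC 1.47, adjusted p = 0.0536 by limma). Gm5082 and Alox8, an arachidonate lipoxygenase, had log2 FC of 1.25 and 0.87 (adjusted p = 0.618 and 0.683 by limma). Of 14 germline genes on the list that holds Gtsf1, 4 passed upwards and none downwards, with 11 of the 14 below percentile 40 of the probe set means, here called dim. The other 3 were the meiotic cohesin Rec8 (0.55), Tcl1b5 (0.52) and Slc25a31 (1.10), and none of these had hearts fully apart. Rec8 did not pass without mutant 4 (0.40) or control 1 (0.37), Tcl1b5 without mutant 2 (0.36) or control 2 (0.43) or 4 (0.44), and Slc25a31 without mutant 3 (0.76) or 4 (1.02) or control 1 (0.80) or 2 (0.86).

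Megakaryocyte and platelet genes had the median log2 FC farthest from 0 among the lists of cell types and functions. Of 21 measured genes, 15 were lower without adjustment and none higher, 20 had a log2 FC below 0, the median was -0.80, and for 7 the hearts were fully apart. Treml1, a receptor stored in platelet granules, stood at 8.30, 8.27, 7.80 and 7.58 in mutant and 9.46, 9.47, 8.39 and 8.58 in control hearts (log2 FC -0.99, standard error 0.25, unadjusted p = 0.00107, adjusted p = 0.404 by limma). Gp9, a subunit of the receptor for von Willebrand factor, was at 8.73, 8.99, 8.78 and 7.76 against 9.85, 10.03, 9.19 and 9.29 (log2 FC -1.02, adjusted p = 0.740 by limma). Ppbp, the precursor of the most abundant platelet chemokines, read 10, 9.68, 9.56 and 8.33 against 10.90, 11.19, 9.74 and 10.39 (log2 FC -1.16, adjusted p = 0.899 by limma), and here mutant 1 overlapped control 4. In each of the 3, mutant 4 was the lowest heart and controls 1 and 2 the highest. The platelet 12-lipoxygenase gene Alox12 (-1.12), the adhesion receptor gene Cd226 (-0.95, dim) and Plek, the main substrate of protein kinase C in platelets (-0.82), were also fully apart, as was Mpig6b (-1.03), an inhibitory receptor of megakaryocytes that was not on the list. Chosen after its values were seen, Itga2b, the alpha subunit of the fibrinogen receptor and the usual marker of the lineage, stood at 8.06, 7.74, 8.03 and 7.84 against 9.41, 9.10, 8.15 and 8.20 (log2 FC -0.80, adjusted p = 1.0 by limma). None of the list was called.

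The control hearts fell into 2 pairs for these genes. The list median, taken per heart as the difference from the control mean, was 0.51 and 0.42 in controls 1 and 2 but -0.47 and -0.48 in controls 4 and 5, against -0.45, -0.80, -0.76 and -1.03 in the mutants. Controls 1 and 2 were those with low and controls 4 and 5 those with high Y-linked expression. Among hearts with low Y-linked expression (3 mutant, 2 control) the list median log2 FC was -1.21, and among those with high expression (1 mutant, 2 control) it was -0.60, with 18 and 5 genes lower without adjustment. With the Y-linked mean as a covariate 16 passed. Without control 1 the count was 9 and the median -0.56, and without mutant 4 they were 11 and -0.64. Erythroid genes had a median of -0.33 over 12 genes, 11 of them below 0 and none passing, and their heart medians were 0.81 in control 1 and between -0.65 and 0.02 in all others. The erythroid median was 0.02 without control 1, -0.13 without mutant 2 and -0.51 without control 4, and it was -0.79 among the hearts with low and 0.28 among those with high Y-linked expression. The part of blood content in the platelet result was not tested. Slc4a1, the anion exchanger of the red cell membrane, was at 11.15, 10.99, 11.56 and 11.47 against 12.72, 11.96, 11.19 and 11.59 (log2 FC -0.57, adjusted p = 1.0 by limma), its groups overlapped, and the log2 FC was -0.29 without control 1. Of 3 embryonic globin genes, Hbb-bh1 passed upwards, with 12.72, 12.14, 13.19 and 12.98 against 12.99, 11.90, 11.11 and 11.66 (log2 FC 0.84, adjusted p = 1.0 by limma), and it did not pass without mutant 3 (0.70) or control 4 (0.57). Over all single hearts left out, the log2 FC of Hbb-bh1 ran from 0.57 to 1.2.

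**Figure D2:**
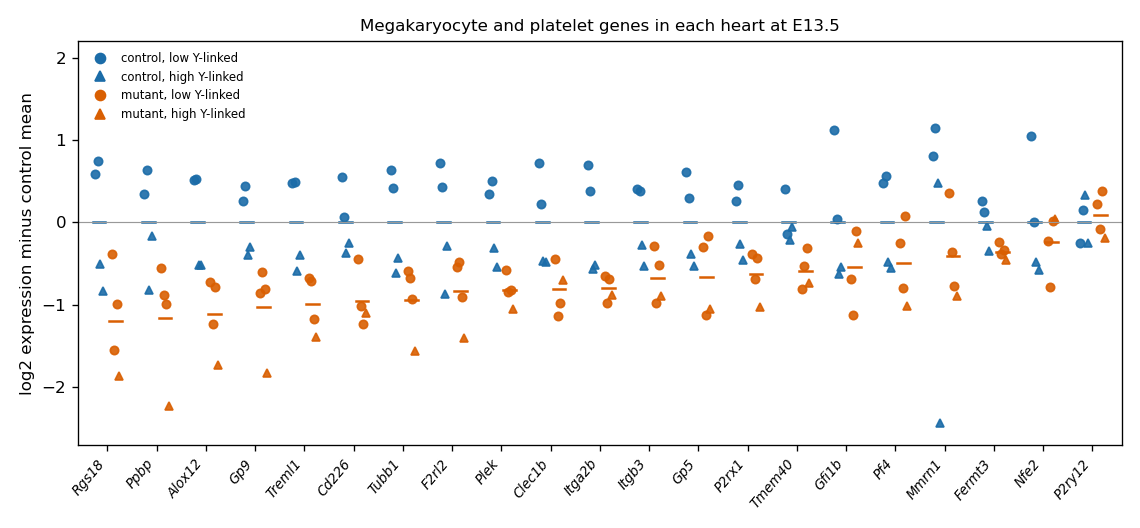
Log2 expression minus the control mean (vertical axis) of the 21 megakaryocyte and platelet genes in each heart at E13.5, ordered by log2 FC, with bars at group means, controls in blue, mutants in orange and triangles for high Y-linked expression. Blue circles (controls 1 and 2) lie above blue triangles (controls 4 and 5) in most genes, and the orange triangle (mutant 4) is often lowest.

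Promoters of 4 of these genes are shown as examples, all lower without adjustment and all holding the ETS-type sequence GGAAGT. The start site follows base 250 of 300, and the sequences are from RefSeq on GRCm38.p6, written along the strand of the gene. Transcription factors of the ETS and zinc-finger GATA families are known to drive megakaryocyte genes. Capitals mark GGAAGT, a form of the ETS site, read as ACTTCC on the other strand. They also mark AGATAA, a form of the zinc-finger factor site, read there as TTATCT. Other forms of either site were not searched for and are not marked. No 2 of the marked matches overlap. Gp9 and Ppbp were described above, and Itga2b and Gp5, a further subunit of the von Willebrand factor receptor, were chosen after their values were seen. They lie at chr6:87777820-87778119 on the plus strand (Gp9), chr5:90768268-90768567 on the plus strand (Ppbp), chr11:102469834-102470133 on the minus strand (Itga2b) and chr16:30310732-30311031 on the minus strand (Gp5).
Gp9: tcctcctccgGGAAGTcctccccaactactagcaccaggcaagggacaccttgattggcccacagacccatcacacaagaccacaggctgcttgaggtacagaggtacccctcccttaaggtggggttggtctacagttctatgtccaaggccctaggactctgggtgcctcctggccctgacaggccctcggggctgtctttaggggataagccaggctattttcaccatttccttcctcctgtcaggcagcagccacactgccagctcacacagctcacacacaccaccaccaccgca
Ppbp: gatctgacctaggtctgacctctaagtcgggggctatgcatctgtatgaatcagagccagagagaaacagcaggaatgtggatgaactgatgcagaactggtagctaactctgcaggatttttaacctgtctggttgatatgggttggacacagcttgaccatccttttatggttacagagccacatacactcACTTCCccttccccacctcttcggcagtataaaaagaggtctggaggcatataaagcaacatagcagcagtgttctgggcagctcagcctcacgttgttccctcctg
Itga2b: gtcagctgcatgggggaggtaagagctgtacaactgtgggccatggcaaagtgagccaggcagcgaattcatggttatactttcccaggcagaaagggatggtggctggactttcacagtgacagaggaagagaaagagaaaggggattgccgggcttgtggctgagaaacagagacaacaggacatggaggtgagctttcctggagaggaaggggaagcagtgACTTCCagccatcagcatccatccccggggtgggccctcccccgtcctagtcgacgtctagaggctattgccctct
Gp5: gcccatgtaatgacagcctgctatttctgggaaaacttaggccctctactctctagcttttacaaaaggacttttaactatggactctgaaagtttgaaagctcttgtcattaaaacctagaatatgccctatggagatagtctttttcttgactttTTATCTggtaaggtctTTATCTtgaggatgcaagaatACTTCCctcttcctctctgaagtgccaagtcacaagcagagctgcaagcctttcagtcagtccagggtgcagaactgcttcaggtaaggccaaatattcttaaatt
Of the 21 genes, 17 had a promoter in the RefSeq table. On either strand 8 of the 17 (47.1%) held GGAAGT, against 24.1% of all 27025 promoters, and 5 (29.4%) held AGATAA, against 11.4%. Of the 12 promoters of genes that were lower without adjustment, 5 (41.7%) held GGAAGT, the 4 shown being among these 5, and 4 (33.3%) AGATAA. These are matches of letters in a short window and no evidence of binding.

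Macrophage genes shifted the other way. Of 28 genes, 4 were higher without adjustment and none lower, 26 had a log2 FC above 0, the median was 0.34, and for 7 the hearts were fully apart. Lyve1, a hyaluronan receptor of tissue macrophages and lymphatic endothelium, stood at 9.85, 9.71, 10.02 and 9.73 in mutant and 9.26, 8.98, 9.12 and 9.17 in control hearts (log2 FC 0.69, standard error 0.20, adjusted p = 0.645 by limma). Vsig4, a complement receptor of resident macrophages, was dim at 5.33, 5.52, 5.31 and 5.11 against 4.66, 4.79, 5.03 and 4.45 (log2 FC 0.59, adjusted p = 0.447 by limma), and did not pass without control 5 (0.49). Aif1, an actin-binding protein also called Iba1, had a log2 FC of 0.57, with mutant 4 (5.90) between the controls (5.60 to 5.99), and it did not pass without mutant 1 (0.49) or 3 (0.45) or control 1 (0.55) or 2 (0.52). Wfdc17, called above, was the remaining gene of the 4. Heart medians of the list were 0.43, 0.10, 0.62 and 0.22 in mutants and between -0.12 and 0.11 in controls, so mutant 2 lay within the control range. The count was 8 without mutant 2, 7 without control 4, 3 without mutant 3, where the median was 0.20, and 1 with dim probe sets left out. It was also 1 with the replicate number as a block (median 0.18) and 1 among the hearts with high Y-linked expression (median 0.14).

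Genes of monocytes and neutrophils gave a mixed picture. Plac8, expressed by monocytes and several epithelia, was dim and stood at 7.20, 5.78, 6.86 and 5.90 in mutant and 4.71, 4.56, 5.17 and 5.03 in control hearts, fully apart (log2 FC 1.57, standard error 0.27, adjusted p = 0.0536 by limma). Fcgr4, an activating Fc receptor, was dim with a log2 FC of 0.60 (0.47 without mutant 1), whereas Lyz1, a lysozyme, went the other way with 8.08, 8.35, 8.52 and 8.23 against 8.73, 9.53, 9.10 and 9.07 (log2 FC -0.82, adjusted p = 1.0 by limma), and did not pass without control 2 (-0.67). Lyz1 shares much of its sequence with Lyz2, so the probe sets may read both. Of 21 neutrophil granule genes, 6 were higher without adjustment and none lower, with a median of 0.26. The gelatinase gene Mmp9, which macrophages express too, was fully apart with 7.71, 6.96, 7.98 and 7.30 against 6.68, 6.02, 6.26 and 6.41 (log2 FC 1.15, standard error 0.23, adjusted p = 0.125 by limma). S100a8, a subunit of calprotectin, read 6.77, 5.72, 7.16 and 5.44 against 4.73, 5.80, 5.12 and 5.34 (log2 FC 1.03, adjusted p = 0.916 by limma), and Ngp, neutrophilic granule protein, 6.87, 6.72, 8.81 and 5.72 against 5.83, 6.40, 5.23 and 5.07 (log2 FC 1.40, adjusted p = 1.0 by limma). For both, mutant 4 lay among the controls and mutant 3 was the highest heart. The cystatin gene Stfa2 (0.88), the lactoferrin gene Ltf (0.85) and S100a9, the partner of S100a8 (0.50), overlapped as well, and did not pass without mutant 3 (0.59, 0.53 and 0.30), nor Ltf without control 4 (0.75) and S100a9 without mutant 1 (0.49) or 2 (0.53) or control 1 (0.35) or 4 (0.48). Of the 21 genes 14 were dim, and 1 passed with dim probe sets left out. Without mutant 3 the count was 3, and among the hearts with high Y-linked expression it was 1 with a median of -0.02. Markers of dendritic cells were dim in 9 of 12 genes, with Clec9a at -1.0 and H2-Eb2 at -0.52 but H2-Aa at 0.69, and H2-Eb2 was between -0.50 and -0.44 without mutant 1, 3 or 4 or control 1 or 4, and then did not pass.

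**Figure D3:**
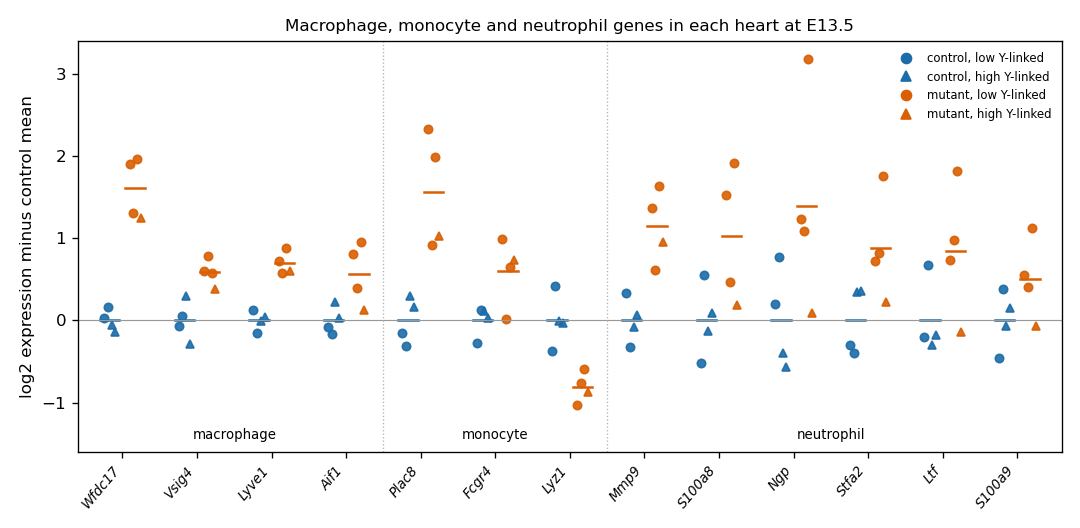
Log2 expression minus the control mean (vertical axis) of macrophage, monocyte and neutrophil genes that passed without adjustment, in each heart at E13.5; bars are group means, controls blue, mutants orange, triangles high Y-linked expression. Wfdc17, Vsig4, Lyve1, Plac8 and Mmp9 have all orange points above all blue points, while mutant 4 falls among the controls for most neutrophil genes.

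Epicardial genes lay higher in mutants 1 and 3. All 19 had a log2 FC above 0, with a median of 0.36, and 5 passed upwards without adjustment, but for none were the hearts fully apart. Aldh1a2, the enzyme that makes retinoic acid in the epicardium, stood at 10.78, 9.92, 11.04 and 9.89 in mutant and 9.73, 9.66, 9.96 and 9.5 in control hearts (log2 FC 0.69, standard error 0.23, adjusted p = 0.919 by limma), and was 0.48 without mutant 3. Krt8, an epithelial keratin of the mesothelium, read 10.09, 9.38, 10.03 and 9.21 against 9.51, 9.0, 8.87 and 8.82 (log2 FC 0.63, adjusted p = 0.849 by limma), and was 0.49 without mutant 1. Bnc1, a zinc-finger factor of mesothelium (0.61), the secreted Wnt antagonist Sfrp5 (0.51) and the tight-junction claudin Cldn15 (0.50) did not pass without mutant 3 (0.37, 0.44 and 0.28), and none of these 3 genes passed without some other hearts either. Heart medians of the list were 0.50 and 0.98 in mutants 1 and 3 but 0.09 and 0.03 in mutants 2 and 4, against -0.21 to 0.16 in controls. Without mutant 3 a single gene passed and the median was 0.26, without mutant 2 there were 8, without mutant 1, control 2 or control 5 there were 3, and with the replicate number as a block none passed and the median was 0.16. Among the hearts with high Y-linked expression none passed, 8 of the 19 genes were below 0 and the median was 0.10.

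Genes of the endocardial cushions and valves leaned downwards. Of 23 genes, 4 were lower and none higher without adjustment, 20 were below 0, the median was -0.19, and for 5 the hearts were fully apart. Hapln1, which links hyaluronan to proteoglycans in the cushion matrix, stood at 9.76, 9.42, 9.19 and 9.68 in mutant and 10.48, 10.56, 10.05 and 9.94 in control hearts (log2 FC -0.74, standard error 0.20, adjusted p = 0.572 by limma). Adamts19, a protease of valve cells, was at 8.15, 8.17, 7.84 and 8.61 against 8.70, 8.85, 8.96 and 8.95 (log2 FC -0.67, adjusted p = 0.488 by limma). The mesenchymal factor Prrx1 (-0.57, and -0.38 without mutant 3) was fully apart too, and the hyaluronan synthase gene Has2 (-0.53) overlapped and was -0.33 without mutant 3, -0.40 without control 1 and -0.45 without control 2. Mutant 3 was the lowest heart for all 4 genes, and 2 passed without it. Heart medians of the list were -0.12, -0.17, -0.36 and -0.28 in mutants and -0.06 to 0.02 in controls, so the groups did not overlap. Among 32 matricellular and proteoglycan genes, 3 were lower and 4 higher. The lower ones were Hapln1, Has2 and Ndnf (-0.58), and the higher ones Spon2 (0.63), Srpx (0.72), Smoc2 (0.50) and Thbs2 (0.72), of which Spon2 alone was fully apart and was 0.44 without mutant 3. Ndnf did not pass without mutant 3 (-0.48) or control 4 (-0.47), Srpx without control 1 (0.53), Smoc2 without mutant 1 (0.45) or 3 (0.33) or control 1 (0.46) or 2 (0.47), and Thbs2 with any heart but mutant 2 and control 5 left out (0.59 to 0.77). None of the 44 collagen genes passed, with a median of -0.01, although Col1a1, the main fibrillar collagen, stood at 11.52, 11.05, 11.93 and 11.28 against 10.84, 10.84, 11.07 and 11.04 (log2 FC 0.50, adjusted p = 1.0 by limma). Endothelial and endocardial genes had none of 22 passing and a median of -0.12, with 19 below 0, but without mutant 3 the median was -0.05, with 15 below 0.

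**Figure D4:**
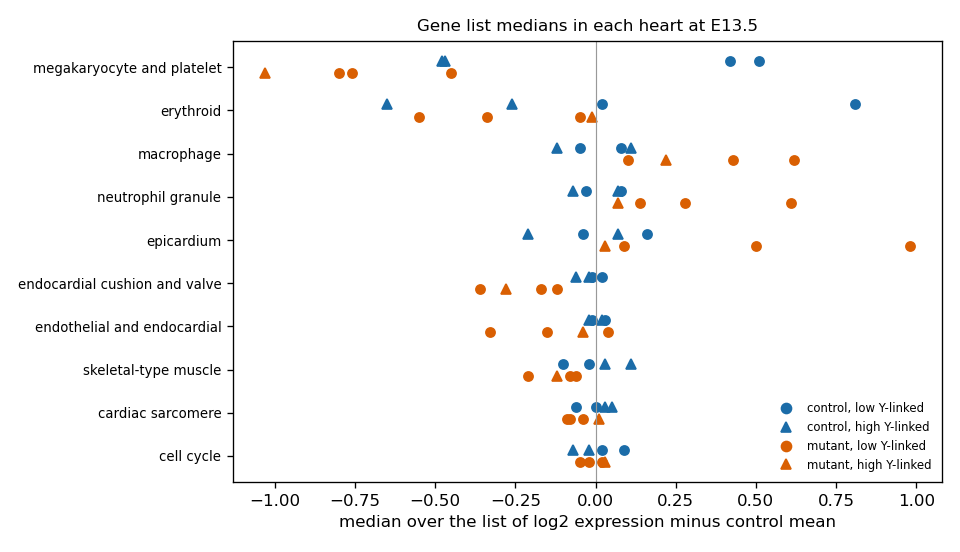
Median over the members of a gene list of log2 expression minus the control mean (horizontal axis) for 10 lists and each heart at E13.5, with controls in blue, mutants in orange and triangles for high Y-linked expression. Platelet medians of the mutants (-1.03 to -0.45) overlap those of controls 4 and 5 (-0.47 and -0.48), mutants 1 and 3 stand out for epicardium, and cardiac sarcomere and cell cycle medians stay near 0.

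Several genes best known from skeletal muscle were lower. Of 28 skeletal-type muscle genes, 9 were lower and 1 higher without adjustment (median -0.09), while none of 21 cardiac sarcomere genes passed (median -0.02). Of the 28, 16 had a log2 FC below 0 and 12 above, and hearts were fully apart for 4 genes downwards and 3 upwards. Mb, the oxygen-binding myoglobin, was fully apart with 10.63, 10.65, 10.50 and 10.87 in mutant and 11.29, 11.51, 11.72 and 11.90 in control hearts (log2 FC -0.94, standard error 0.17, adjusted p = 0.0576 by limma). Myl1, an essential myosin light chain of fast muscle, varied among mutants, at 7.65, 9.62, 8.47 and 7.62, whereas controls lay together at 9.31, 9.74, 9.93 and 9.93 (log2 FC -1.39, standard error 0.32, adjusted p = 0.295 by limma). Mybpc1, a slow myosin-binding protein, showed the same pattern with 5.56, 6.98, 6.51 and 6.11 against 7.18, 7.09, 7.07 and 6.93 (log2 FC -0.78, adjusted p = 0.698 by limma). For both genes mutant 2 came nearest to the controls. The actin-binding repeat protein gene Xirp2 (-0.77, dim) and Hjv, hemojuvelin, a BMP co-receptor of muscle (-0.54), were lower as well, Hjv not passing without mutant 1 (-0.46) or 4 (-0.50) or control 5 (-0.49). Myom2, a protein of the M-band, was higher, at 8.87, 8.37, 8.64 and 8.77 against 7.97, 7.32, 8.05 and 7.72 (log2 FC 0.90, standard error 0.22, adjusted p = 0.394 by limma). Of 6 genes of skeletal muscle precursors, 4 were dim and none passed. The lower count was 6 to 10 with each heart left out, 4 among the hearts with low Y-linked expression and 5 with the replicate number as a block. Nebl, a nebulin-like Z-disc protein, was the sarcomere gene with the smallest p, fully apart at 10.90, 10.68, 10.56 and 10.80 against 11.18, 11.10, 11.30 and 11.10, but its log2 FC of -0.44 was below the threshold.

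Cholinergic genes held several members that differed with little spread. The parasympathetic nerves slow the heart by releasing acetylcholine, which acts on muscarinic receptors, opens the GIRK potassium channel through G proteins and is destroyed by cholinesterases. Of 20 genes, 5 were lower and 1 higher without adjustment, and the hearts of all 6 were fully apart. Over the whole list, hearts were fully apart for 5 genes downwards and 3 upwards, and 10 of the 20 had a log2 FC below 0. On the receiving side, Chrm2, the main muscarinic receptor of the heart, stood at 9.80, 9.46, 9.07 and 9.61 in mutant and 9.91, 10.24, 10.47 and 10.25 in control hearts (log2 FC -0.73, standard error 0.19, adjusted p = 0.488 by limma). Kcnj3, a subunit of the GIRK channel, was at 8.32, 8.13, 8.66 and 8.23 against 9.0, 9.29, 9.23 and 9.21 (log2 FC -0.85, standard error 0.18, adjusted p = 0.203 by limma), and Rgs7bp, which anchors regulators of G-protein signalling at the membrane, had a log2 FC of -0.52. These 3 genes, picked because they passed, were each lower in every mutant heart than in any control heart. Of the enzymes, Ache, acetylcholinesterase, read 7.85, 8.0, 7.76 and 7.81 against 8.55, 8.51, 8.58 and 8.40 (log2 FC -0.65, standard error 0.16, adjusted p = 0.365 by limma), and Bche, butyrylcholinesterase, 9.61, 9.55, 9.53 and 9.41 against 9.71, 10.17, 10.28 and 10.16 (log2 FC -0.56, adjusted p = 0.706 by limma). Colq, the collagen-like tail that anchors acetylcholinesterase, was the higher gene, at 8.80, 8.67, 8.55 and 8.82 against 7.97, 8.02, 8.23 and 8.11 (log2 FC 0.63, standard error 0.11, adjusted p = 0.0576 by limma). Rgs7bp fell short of the wider rule without mutant 4 (-0.49) or control 2 (-0.49) or 4 (-0.48), and Bche without control 4 (-0.49). The list median was -0.05, and the other 14 genes, among them nicotinic receptor subunits and the genes of acetylcholine synthesis and transport, did not pass.

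Single genes of other ligand-gated channels were lower too. Of 21 GABA-A and glycine receptor subunits, 12 were dim, 4 were lower without adjustment and none higher. Gabrb2 stood at 7.09, 7.09, 6.77 and 6.70 in mutant and 7.69, 7.79, 7.94 and 7.54 in control hearts (log2 FC -0.83, standard error 0.15, adjusted p = 0.0576 by limma), and Gabrg3 at 6.46, 6.35, 6.5 and 6.32 against 6.77, 7.26, 7.29 and 7.33 (log2 FC -0.75, adjusted p = 0.111 by limma). Both were fully apart. Gabra4 (-0.57) and the glycine receptor beta subunit Glrb (-0.51) overlapped, and the count was 2 without control 4, with Gabra4 at -0.46 and Glrb at -0.49. Glrb did not pass without mutant 2 (-0.44) or 3 (-0.43) or control 2 (-0.42) either. Kcnh7, a potassium channel of the ERG family, was fully apart at 7.26, 6.78, 7.35 and 6.64 against 8.02, 7.91, 7.99 and 7.81 (log2 FC -0.92, adjusted p = 0.125 by limma), as 1 of 3 among 92 potassium channel genes that passed. P2ry1, a receptor for ADP, had a log2 FC of -0.62 (adjusted p = 0.117 by limma), and P2rx1, an ATP-gated channel that was also on the platelet list, -0.63, not passing without mutant 4 (-0.50) or control 1 (-0.54) or 2 (-0.48). Of 19 autonomic neuron genes Crmp1 was lower (-0.54) and Ina (0.66) and Dcx (0.62) were higher, with a median of 0.12. Crmp1 did not pass without mutant 3 (-0.42) or control 2 (-0.47) or 4 (-0.48), Ina without mutant 2 (0.47) or Dcx without control 5 (0.49).

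**Figure D5:**
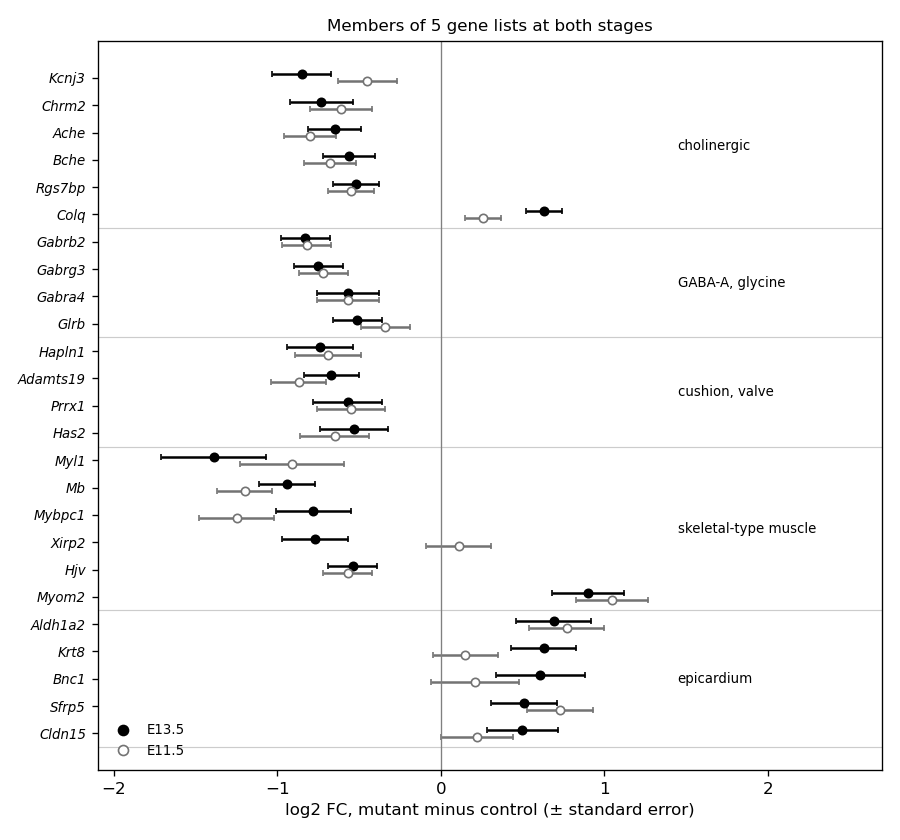
Log2 FC, mutant minus control, with its standard error (horizontal axis), of members of 5 gene lists that passed without adjustment at E13.5, at E13.5 (filled) and E11.5 (open). Xirp2 (-0.77 at E13.5, 0.11 at E11.5) is the one member on opposite sides of 0.

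Several signalling genes passed without adjustment. Of 29 activin, TGF-beta and BMP genes, 4 were lower and none higher, with a median of -0.06. Fst, the activin antagonist follistatin, was fully apart at 7.76, 7.87, 7.49 and 7.71 in mutant and 8.20, 8.73, 8.36 and 8.49 in control hearts (log2 FC -0.74, adjusted p = 0.572 by limma). Its ligand gene Inhba had a log2 FC of -0.56 (-0.31 without mutant 3, -0.49 and -0.45 without controls 2 and 4), the muscle growth inhibitor Mstn -0.83 and the dim, X-linked Bmp15 -0.67. Mstn did not pass without mutant 3 or 4 or control 2 or 5 (-0.78 to -0.72). In the angiopoietin pair, which acts on the endothelial receptor TIE2, Angpt1 stood at 9.27, 9.36, 9.72 and 9.26 against 9.56, 10.29, 10.29 and 10.18 (log2 FC -0.68, adjusted p = 0.688 by limma), and Angpt2 at 7.80, 7.78, 7.65 and 7.48 against 6.72, 6.91, 7.26 and 7.23 (log2 FC 0.65, adjusted p = 0.404 by limma). The agonist was thus lower and its context-dependent antagonist higher, without overlap for Angpt2 only. In the endothelin pathway the ligand gene Edn1 was higher at 10.38, 9.15, 9.46 and 9.96 against 8.78, 8.96, 8.87 and 8.71 (log2 FC 0.90, standard error 0.26, adjusted p = 0.657 by limma) and the receptor gene Ednrb lower at 11.24, 11.32, 10.76 and 11.26 against 11.66, 11.69, 11.63 and 11.77 (log2 FC -0.54, adjusted p = 0.572 by limma). Both were fully apart, and Ednrb was -0.41 without mutant 3. Igfbpl1, a binding protein of the insulin-like growth factors, had a log2 FC of -0.67 (adjusted p = 0.151 by limma).

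Besides Nr2f1, 2 of 27 cardiac transcription factor genes were lower. Dach1, which takes part in coronary artery growth, stood at 7.44, 7.22, 7.46 and 7.25 in mutant and 7.86, 8.04, 8.25 and 7.79 in control hearts (log2 FC -0.65, standard error 0.13, adjusted p = 0.125 by limma). Etv1, an ETS factor of atrial and fast-conducting muscle, was at 10.05, 9.38, 9.51 and 9.95 against 10.23, 10.42, 10.25 and 10.20 (log2 FC -0.55, adjusted p = 0.560 by limma), and it fell short of the wider rule without mutant 2 (-0.44) or 3 (-0.48). Gja5, the connexin-40 gene of arterial endothelium, atria and conduction muscle, was higher, at 11.83, 12, 12.03 and 11.83 against 11.37, 11.38, 11.35 and 11.49 (log2 FC 0.52, standard error 0.11, adjusted p = 0.122 by limma), and read 0.50 and 0.49 without mutants 2 and 3. Perp, a desmosomal protein and p53 target, was the member of 15 p53 targets that passed (-0.67, adjusted p = 0.0803 by limma), and the median of that list was 0.03.

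Some groups gave little. None of 33 cell cycle genes, 25 genes of glycolysis and hypoxia, 21 of fatty acid oxidation, 18 Notch, 17 smooth muscle and pericyte and 21 imprinted genes passed, with medians between -0.10 and 0.11. Of 81 oxidative phosphorylation genes, Cox8b was lower (-0.51) and Cox6b2 higher (0.55), both isoforms restricted to certain tissues, and the median was 0.06. Small shifts upwards were common in 2 of these groups. A log2 FC below 0 was seen in 17 of the 81 and in 5 of the 25 glycolysis and hypoxia genes, against 48.6% of all genes. Of the markers of other tissues, none of the foregut, thymus and thyroid or muscle precursor genes passed, the liver list held Apoc1 (0.80, also made by macrophages), the melanocyte list the dim Dct (-0.73) and Gpnmb (-0.65), and the lymphoid list Tigit (0.53). Without some single hearts Cox8b (-0.49 to -0.41 without mutant 1 or control 4 or 5), Cox6b2 (0.47 without control 4), Dct (-0.62 and -0.57 without controls 4 and 5) and Tigit (0.40 and 0.43 without mutant 4 and control 4) did not pass. Of 1015 odorant receptor genes, 967 of them dim and not thought to be active in the heart, 3 were lower and 2 higher.

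The response was also compared with that at E11.5. The difference between the log2 FC at E13.5 and at E11.5, which share no hearts, had an adjusted p under 0.05 for 0 genes (0.0%) by limma, with 790 at an unadjusted p under 0.05 and a lowest adjusted p of 0.764. This does not show that the stages responded alike. List medians at E11.5 were -0.41 for platelet, -0.51 for erythroid, 0.20 for macrophage, 0.16 for neutrophil, 0.25 for epicardial and -0.11 for cushion genes, on the same side of 0 as at E13.5. Other lists lay on opposite sides, with -0.08 at E11.5 against 0.29 at E13.5 for monocyte, -0.02 against 0.30 for germline, -0.03 against 0.11 for embryonic globin, -0.08 against 0.12 for autonomic neuron and 0.04 against -0.06 for activin, TGF-beta and BMP genes. The platelet genes Treml1 and Cd226 had log2 FC of -0.15 and 0.19 at E11.5 against -0.99 and -0.95 at E13.5 (adjusted p of the difference 1.0 by limma for both). Wfdc17 had 0.60 against 1.61 and Mmp9 0.26 against 1.15, again with an adjusted p of the difference of 1.0 by limma. These 4 genes do not stand for the rest, as others differed clearly at E11.5 too. Among called genes, Chd7 had -1.29 at E11.5 against -1.08 at E13.5, Calcr -1.07 against -1.39 and Cpn1 1.47 against 1.93. For Igfbpl1 (-1.30 against -0.67) and Cox8b (-1.17 against -0.51) the change was larger at E11.5.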

How the data were processed

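Whole hearts were dissected, and RNA from single hearts was measured on Affymetrix Mouse Gene 1.0 ST arrays. Per the labels and the paper, the authors applied RMA (affy package) to obtain the deposited log2 values, and they tested with limma. RMA removes background, gives the probe values of arrays normalised together one distribution and combines the probes of a set. The deposited values had standard deviations per array of 2.177 to 2.265 at E11.5 and 2.378 to 2.418 at E13.5. Versions are not given in the sources used here, nor whether both stages were normalised together. The number of arrays limits precision.

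All 34760 probe sets of 16 arrays were fitted with limma 3.58.1 (R 4.3.3), with a mean per group of genotype and stage, 12 residual degrees of freedom and Benjamini-Hochberg adjustment over all probe sets. Probe sets naming 1 gene (21640) gave 19937 genes, each described by its brightest probe set and called through any of its probe sets. The fit was tested on simulated data. Sets below percentile 40 of the means are called dim. The 60 gene lists hold 2128 measured genes and were, like the comparison, chosen with earlier results of these data known. Named are every called gene, the 10 genes per direction with the largest log2 FC among those passing without adjustment with hearts fully apart, up to 6 passing members per list by smallest p (otherwise 2), and heart, Y-linked and target genes. Lists got no test. The 20 alternatives were the E13.5 arrays alone, a trended robust prior, array weights, 3 normalisations or centrings, filters on probe sets, a median of probe sets, a replicate block, a Y-linked covariate, no fold threshold, and leaving out each heart; 3 more were added after seeing the data. Promoters are from RefSeq (GRCm38.p6). Figures used matplotlib 3.10.9 under Python 3.11.15.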

Additional observations from a re-analysis of the deposited data

Results flagged for a closer look

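Of 202 groups of 4 hearts checked, 2 for each of 101 genes, 6 (2.97%) had a heart far from the other 3 by Dixon's criterion for 4 values. For independent, normally distributed values the criterion flags about 1 group in 20. The genes here were mostly selected for small p and share the same 8 hearts, so the 2 rates cannot be compared. Control 1 was low for Angpt1 (9.56, others 10.18 to 10.29) and for Gabrg3 (6.77, others 7.26 to 7.33). Mutant 3 was high for Cpn1 (9.17, others 8.58 to 8.65) and Igfbpl1 (8.15, others 7.74 to 7.78) and low for Ednrb (10.76, others 11.24 to 11.32). Control 2 was high for Ltf (6.20, others 5.23 to 5.35).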

How the results depend on the processing

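The number of called genes depended on the processing, from 6 lower and 3 higher as reported. With the E13.5 arrays alone, quantile normalisation or a Y-linked covariate 1 was lower and 1 higher, with a trended robust prior 15 and 10, with array weights 27 and 14, with cyclic loess 11 and 6, without dim probe sets 13 and 5, with single-gene probe sets 13 and 8, with probe sets of a gene summarised by their median 0 and 1. Leaving out each heart gave 1 to 8 lower and 1 to 4 higher. The alternatives chosen after seeing the data gave 1 and 0 without mutant 3 and control 1, 0 and 0 among hearts with low and 1 and 0 among hearts with high Y-linked expression. The numbers in the labels did not pair the hearts, with correlations of deviations of -0.029, -0.052 and 0.043 for numbers 1, 2 and 4. With the replicate number as a block, which rests on those 3 pairs, 0 and 0 genes were called by limma and 124 and 112 passed without adjustment. Without adjustment, dropping the fold threshold gave 394 lower and 392 higher genes, leaving out dim probe sets 77 higher, leaving out single hearts 101 to 193 higher (193 without mutant 2), and hearts with low Y-linked expression 182 higher. The brightest Chd7 probe set missed the call, at log2 FC -1.08 with E13.5 alone, -1.13 with the block, -1.06 with the Y-linked covariate, -1.11 to -1.0 without mutant 3, mutant 4, control 1 or control 4, -0.99 without mutant 3 and control 1, -1.10 and -1.0 among hearts with low and high Y-linked expression, and -0.71 as the median of its probe sets. It was called without mutant 1, mutant 2, control 2 or control 5, and the range over all single hearts left out was -1.16 to -1.0. The platelet count was 9 to 16 with single hearts left out, 9 without mutant 3 and control 1 and 5 among hearts with high Y-linked expression, where S100a9 (-0.11) and Stfa2 (-0.12) changed sign. The stage difference stayed at 0 genes under every alternative. Of 89 described genes passing without adjustment, 44 passed under each of the 20 alternatives that tested them and 46 with each heart left out. Dim genes were not tested where dim probe sets were left out, so that alternative does not count against them. The cause of these shifts was not tested. Signal over background limits dim probe sets.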
